A study of Mus musculus with 196 samples.

Results

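Core and naive pluripotency factors were followed through a culture in which mouse primordial germ cell-like cells (PGCLCs) are driven towards the oocyte fate. The 10 genes, chosen by name out of the 25706 endogenous genes of the deposited table, were Pou5f1, Sox2, Nanog, Sall4, Esrrb, Zfp42, Klf2, Klf4, Klf5 and Tbx3. Each had a row and a value in all 194 libraries used. PGCLCs, obtained in culture from embryonic stem cells through an epiblast-like stage, stand for the germ cells of the early embryo.

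POU5F1 (also called OCT4), SOX2 and NANOG are transcription factors that bind the regulatory regions of their own and of each other's genes and together keep embryonic stem cells undifferentiated. ESRRB, KLF2, KLF4, KLF5 and TBX3 belong to a second layer that holds the naive state, in which LIF and WNT signals feed into the network, and ZFP42 (also called REX1) is its most used marker. Primordial germ cells express much of this network again, and female germ cells lose Pou5f1, Sox2 and Nanog as they enter meiosis.

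All PGCLC lines were on a 129S1 and C57BL/6 background and carried the reporter transgenes Prdm1-mVenus and Dppa3-ECFP. Clone OESko_A11 carried a tetracycline-responsive Zglp1 coding sequence with IRES-mCherry, an EF1a-driven rtTA, both on piggyBac vectors, and Stra8-/-. OE_A2 carried the same transgenes with Stra8 intact, and each of these was 1 clone. Zko stands for a pair of Zglp1-/- clones (Zko_E5 and Zko_G10), Sko for a pair of Stra8-/- clones (Sko_B6 and Sko_F6), and H18 for the line with neither knockout nor Zglp1 transgene. ZGLP1 is a GATA-like zinc finger factor of germ cells and STRA8 is needed for entry into meiosis in response to retinoic acid (RA). OE_A2 received doxycycline (Dox) by itself, with RA (DoxRA), with a compound named BMS (BMSDox), and in medium without serum with a compound named WIN (SerumMinusWINDox), and OESko_A11 received DoxRA. Zko was given BMP2 or BMP2 with RA (B2RA), Sko was given B2RA, and H18 was given BMP2, RA or B2RA. The controls of a line had none of these, and BMS and SerumMinusWIN without Dox served as controls of their own media. OE_A2 was also kept in medium without serum and with neither WIN nor Dox (SerumMinus), with 1 library each at days 4, 5, 7 and 9. These libraries count among the groups described below but entered no comparison. The labels give no dose, the compounds BMS and WIN are known only by those names, and no line without the Zglp1 transgene received Dox, so the effects of Dox and of the transgene cannot be told apart. PGCLCs of day 4 of induction were sorted on the Prdm1 reporter onto feeder cells, which give membrane-bound SCF, and this is culture day 0. Cultured cells were sorted on the Dppa3 reporter at days 3 to 9 and libraries were made from the sorted cells. H18 was also sampled at day 3.5. Embryonic germ cells came from crosses of ICR with C57BL/6, as Dppa3-EGFP primordial germ cells of E9.5 and Ddx4-RFP oocytes of E14.5 and E15.5, with 1 library each.

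Libraries held 877040 to 5196593 reads assigned to endogenous genes, and expression is given as RPM, in which each library is scaled to the same total of such reads. One read was worth 0.192 to 1.14 RPM, so members at a few RPM rest on a handful of reads. In each of 93 pairs of replicates the reads of a pair differed beyond counting error, with a chi-square of 1.62 to 59.9 per degree of freedom. The labels do not say whether replicates were separate cultures, so p-values measure the spread between these libraries, which may be technical. At day 9 the mCherry part of the transgene was read at 3819 to 5863 RPM in OESko_A11 with DoxRA, against 173 to 179.6 RPM in its controls. In OE_A2 it was at 1720 to 4609 RPM with DoxRA and 925 to 1659 RPM with Dox, against 162 to 406 RPM in controls, and it was at or under 1.42 RPM in every library of the other lines. Reads of Stra8 were at 352 to 378 RPM in OESko_A11 with DoxRA, against 1155 to 1519 RPM in OE_A2 with DoxRA. The pair of Sko clones stood apart, with Stra8 at 423 to 688 RPM in Sko_B6 and 52.7 to 67.0 RPM in Sko_F6 with B2RA, against 658 to 805 RPM in H18 with B2RA. Zglp1 was at 16.3 to 32.7 RPM in Zko with B2RA, against 48.8 to 53.6 RPM in H18 with B2RA. The labels do not say which part of either gene was deleted, so a tag at the 3′ end checks neither knockout. Germ cell marker genes were present at day 9, with summed levels of 927 to 3241 RPM and 4 to 7 of 7 genes at 10 RPM or more in each group. The 5 gonadal soma markers had 0 to 2 genes at 10 RPM or more in each group of day 9. Their sum reached 59.8 RPM in 1 library of Zko_E5, 54.1 RPM in 1 of Zko_G10 and 55.0 RPM in 1 of Sko_B6 with B2RA, and their part in the results there was not tested. It was 1.44 to 1.59 RPM in OE_A2 with DoxRA and 5.33 to 78.2 RPM in H18 with B2RA, against 4.31 to 10.7 RPM in OE_A2 controls and 2.71 to 4.73 RPM in H18 with BMP2.

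Over the 98 PGCLC groups of line, treatment and day, the core factors ranged widely. Pou5f1 had group means of 1.26 to 438 RPM with a median of 244 RPM, Sox2 of 2.46 to 663 RPM with a median of 239 RPM, and Nanog of 1.16 to 361 RPM with a median of 153 RPM. The lowest group of all 3, and also of Esrrb, Klf2 and Sall4, was OE_A2 with DoxRA at day 9. Klf5 was lowest in the same cells at day 7 with 4.81 RPM and highest at 156 RPM in Zko_G10 with BMP2 at day 7. Zfp42 was lowest in H18 with B2RA at day 9, with 18.3 RPM. Klf4 was low throughout, with a median group mean of 11.3 RPM and 56 of 98 groups at 10 RPM or more. Tbx3 reached 10 RPM in 1 group, Zko_E5 with B2RA at day 9 with 17.2 RPM, and had a median of 0.896 RPM. Sall4, a zinc finger factor that sustains Pou5f1, was at 10 RPM or more in all 98 groups.

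Because most members moved together, the bases next to their start sites were searched for recognition sequences of the circuit. Promoter windows from RefSeq (GRCm38.p6, which is mm10), each running from 250 bases before to 50 bases after a start site, were found for 7 of the 10 members. The windows of Nanog, Zfp42 and Pou5f1 are shown, chosen after the search, because they hold matches for the core circuit and for the KLF and nuclear receptor families, which are in capitals. Both strands were searched.
Nanog, chr6:122707239-122707538, plus strand: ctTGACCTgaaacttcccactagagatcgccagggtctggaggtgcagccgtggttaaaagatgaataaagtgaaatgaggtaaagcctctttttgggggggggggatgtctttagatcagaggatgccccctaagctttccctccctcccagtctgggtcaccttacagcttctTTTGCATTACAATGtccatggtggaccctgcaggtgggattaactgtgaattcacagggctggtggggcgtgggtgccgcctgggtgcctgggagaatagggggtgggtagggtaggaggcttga
Zfp42, chr8:43306960-43307259, minus strand: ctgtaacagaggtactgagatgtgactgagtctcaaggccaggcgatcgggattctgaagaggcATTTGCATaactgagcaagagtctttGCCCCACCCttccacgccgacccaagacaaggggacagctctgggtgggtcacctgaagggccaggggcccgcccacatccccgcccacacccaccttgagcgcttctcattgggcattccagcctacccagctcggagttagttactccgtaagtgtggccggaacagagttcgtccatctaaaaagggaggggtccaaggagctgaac
Pou5f1, chr17:35505782-35506081, plus strand: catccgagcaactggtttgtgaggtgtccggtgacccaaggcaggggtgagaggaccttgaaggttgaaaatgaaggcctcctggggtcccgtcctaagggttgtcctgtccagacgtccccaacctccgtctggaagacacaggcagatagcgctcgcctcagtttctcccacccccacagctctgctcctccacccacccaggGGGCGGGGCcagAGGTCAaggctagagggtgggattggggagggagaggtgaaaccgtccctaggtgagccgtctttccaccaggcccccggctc
In Nanog the capitals read, on the opposite strand, as the SOX-OCT composite motif, a SOX site next to an octamer, which begins 75 bases before the start site of the window shown. It was found in 3 of 32851 windows of the genome, or 0.00913%, of which 2 are overlapping windows of Nanog itself. In the other of these, which belongs to a second start site, it lies 151 bases before the start. The octamer ATGCAAAT lies on the opposite strand of the Zfp42 window, 186 bases before the start, and is held by 1.74% of all windows. Also in capitals are an AGGTCA on the opposite strand at the far end of the Nanog window, 248 bases before the start, and a GGGNGNGGC on the opposite strand of Zfp42, 160 bases before the start. The capitals in Pou5f1 are a GC-rich element that KLF and SP factors recognise (GGGNGNGGC, 25.8% of windows), 45 bases before the start, and a nuclear receptor core site (AGGTCA, 16.3% of windows), 33 bases before it. These short motifs also lie in windows of other members, AGGTCA in Sox2, and GGGNGNGGC in Esrrb, Klf2, Klf4 and Sox2. The site TCAAGGTCA of orphan receptors, which contains AGGTCA, and the direct repeats DR0, DR1 and DR5, in which copies of AGGTCA follow each other with 0, 1 or 5 bases between them, lay in none of the members' windows, which says only that these letters are not there.

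By annotation (GENCODE, mm10), Pou5f1 lies at chr17:35506018-35510772, Sox2 at chr3:34650405-34652461, inside the noncoding gene Sox2ot on the same strand, and Nanog at chr6:122707489-122714633. Sall4 lies at chr2:168748332-168767943, Esrrb at chr12:86361117-86521628 and Zfp42 at chr8:43295063-43306980. The KLF genes lie at chr8:72319033-72321656 (Klf2), chr4:55527143-55532466 (Klf4) and chr14:99298691-99315036 (Klf5), and Tbx3 at chr5:119670669-119684724 with an antisense partner, Tbx3os1. The sources used here do not say whether counting used strand, so reads of Sox2 and Tbx3 may include reads of these neighbours. Nanog and Zfp42 have annotated pseudogenes without rows of their own, and reads they share are uncertain.

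With Dox, the core factors were lower in OE_A2 at day 9, and lower still with DoxRA. In OE_A2 with Dox, Pou5f1 had 39.5 and 45.8 RPM, against 140.4 and 144 RPM in controls. Sox2 had 56.7 and 48.2 RPM with Dox, against 334 and 232 RPM in controls. Nanog had 12.5 and 17.3 RPM with Dox, against 89.8 and 113 RPM in controls. Both Dox libraries lay below both controls for each of the 3 genes, as they did for 33.7% of all genes tested. The log2 change was -1.72 ± 0.46 (SE) for Pou5f1 (adjusted p = 0.00203), -2.39 ± 0.41 for Sox2 (adjusted p = 1.74e-06) and -2.70 ± 0.47 for Nanog (adjusted p = 3.16e-06), by limma on log2(RPM + 1). A gene is called here at an adjusted p under 0.05 with a log2 change of at least 1, and the added 1 RPM understates changes of low genes. Sall4 fell to 62.6 ± 4.08 RPM with Dox, against 155 ± 14.9 RPM in controls (mean ± SD, n = 2 each; log2 change -1.29 ± 0.31, adjusted p = 0.000634).

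Of the naive layer, Esrrb, an orphan nuclear receptor, fell to 33.4 ± 1.66 RPM with Dox, against 104 ± 0.582 RPM in controls (log2 change -1.60 ± 0.29, adjusted p = 5.7e-06). Zfp42 fell by a similar amount, to 24.8 ± 3.5 RPM against 80.8 ± 15.7 RPM in controls (log2 change -1.66 ± 0.26, adjusted p = 2.46e-07). Among the KLF factors Klf2 fell to 18.6 ± 0.747 RPM, against 72.0 ± 31.1 RPM in controls (log2 change -1.83 ± 0.44, adjusted p = 0.000666). Klf5 averaged 23.7 ± 1.76 RPM with Dox and 53.3 ± 23.7 RPM in controls, whose libraries differed widely, and was not called (log2 change -1.07 ± 0.47, adjusted p = 0.0666), though it was with TMM factors and by edgeR. Without the first control library Klf5 was called (-1.53, adjusted p = 0.0413) and Klf2 was not (-1.38, adjusted p = 0.0528). In all, 7 of the 8 members tested were called lower, where 9.38% of the 9372 genes tested were. Their median log2 change was -1.69, beside 0.06 for all genes tested. Klf4 and Tbx3, with 9.03 and 6.98 RPM and 0.860 and 0.303 RPM under Dox, were too low to test.

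With DoxRA the core factors were down to a few reads at day 9. Pou5f1 had 1.73 and 0.797 RPM, 7 reads over both libraries, against 140.4 and 144 RPM in controls. Nanog had 2.31 and 0 RPM, 8 reads over both libraries, and Sox2 had 1.73 and 3.19 RPM, or 10 reads, against 89.8 and 113 RPM of Nanog and 334 and 232 RPM of Sox2 in controls. The log2 changes were -6.01 ± 0.46 for Pou5f1 (adjusted p = 7.73e-21), -5.80 ± 0.47 for Nanog (adjusted p = 1.6e-19) and -6.37 ± 0.41 for Sox2 (adjusted p = 1.38e-25). Sall4 fell to 12.0 ± 2.23 RPM, against 155 ± 14.9 RPM in controls (log2 change -3.60 ± 0.31, adjusted p = 2.47e-18). Esrrb fell to 3.11 ± 2.14 RPM against 104 ± 0.582 RPM (log2 change -4.77 ± 0.29, adjusted p = 4.61e-28), and Klf2 to 3.54 ± 2.75 RPM against 72.0 ± 31.1 RPM (log2 change -4.08 ± 0.44, adjusted p = 1.53e-13). Klf5 fell less far, to 10.5 ± 3.55 RPM against 53.3 ± 23.7 RPM in controls (log2 change -2.20 ± 0.47, adjusted p = 2.91e-05). The DoxRA libraries lay below both controls for each of these 7 genes, as they did for 34.3% of all genes tested.

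Zfp42 and Klf4 lay nearer to their control levels in the same cells. Zfp42 had 38.4 and 39.9 RPM with DoxRA, against 91.9 and 69.7 RPM in controls, a log2 change of -1.01 ± 0.26 (adjusted p = 0.000453) just past the size threshold, and it was not called with a pseudocount of 5 RPM (-0.95), without the first control library (-0.82) or without the first DoxRA library (-0.99). Klf4 had 24.3 and 7.97 RPM with DoxRA, against 12.0 and 5.03 RPM in controls, and was not called (log2 change 0.76 ± 0.61, adjusted p = 0.272). Tbx3 was at 0 reads in both libraries with DoxRA, against 4.47 and 1.08 RPM in controls. Counted together, 8 of 9 members tested were called lower with DoxRA, where 22.5% of 9517 genes were, and their median log2 change was -4.08 beside 0.11 for all genes tested.

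Between the Dox treatments, DoxRA against Dox alone, 6 of 8 members tested were lower and none higher, where 10.6% of 9121 genes tested were lower. The log2 difference of Pou5f1 was -4.30 ± 0.46 (adjusted p = 9.17e-13), of Sox2 -3.98 ± 0.41 (adjusted p = 1.03e-13) and of Nanog -3.11 ± 0.47 (adjusted p = 1.05e-07). Esrrb (-3.17), Sall4 (-2.30) and Klf2 (-2.25) were also lower with RA. Zfp42 lay the other way, at 39.1 ± 1.02 RPM with DoxRA and 24.8 ± 3.5 RPM with Dox alone, but was not called (log2 difference 0.64 ± 0.26, adjusted p = 0.0578). When only the groups compared were fitted, Nanog (adjusted p = 0.0605) and Klf2 (adjusted p = 0.0659) lost their calls. These 3 comparisons share their libraries pairwise, so they are not independent. Several members reached 10 RPM only in the control or Dox libraries, and when 1 of those was left out and the filter on low genes applied anew, 2 or 3 members were called with DoxRA against control and 1 against Dox. With the same genes tested throughout, 7 to 8 and 6 were called.

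**Figure D1:**
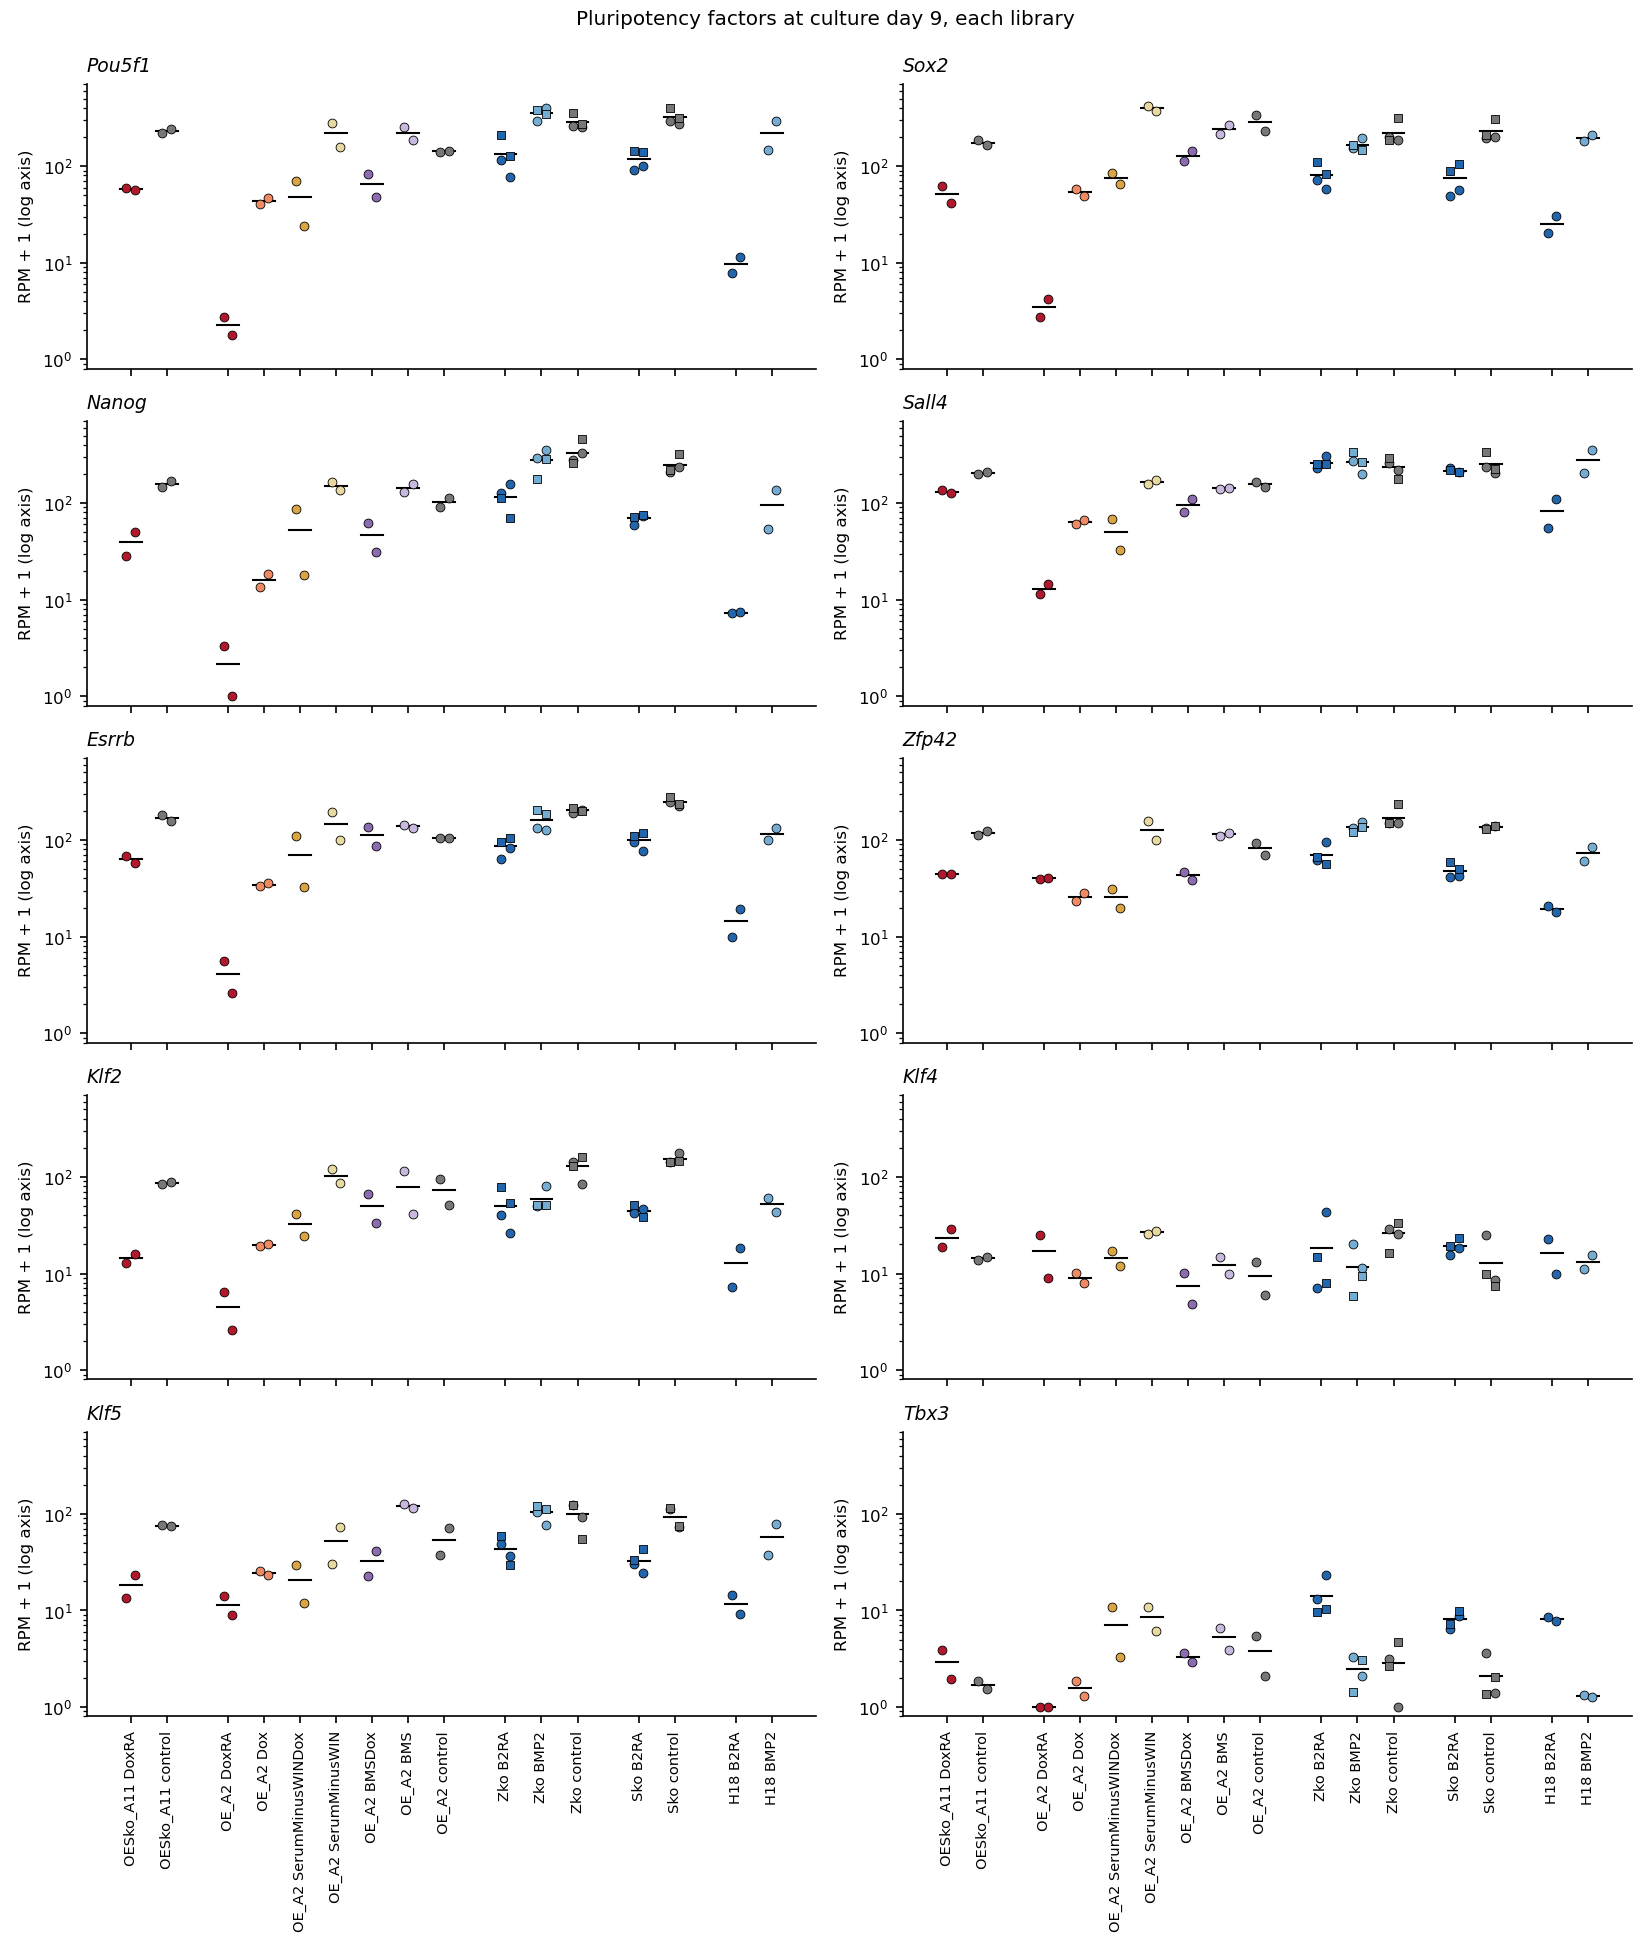
Level of each of the 10 genes at day 9 in RPM + 1 on a log axis, 1 point per library, with bars at group means. The lines run from left to right as OESko_A11, OE_A2, Zko, Sko and H18, circles and squares are the first and second clone where there is a pair, and Pou5f1, Sox2 and Nanog are lowest in OE_A2 with DoxRA, at group means of 1.26, 2.46 and 1.16 RPM.

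Markers of other cells and of the germ line moved in these libraries as well. The 12 feeder and stroma genes summed to 67.9 to 519.7 RPM in the DoxRA libraries, with 5 of 12 at 10 RPM or more and 1 at 0, and to 58.8 to 70.5 RPM with Dox (2 of 12, and 4 at 0), against 32.7 to 54.3 RPM in controls (2 of 12, and 2 at 0). The 8 mesoderm and endoderm genes summed to 5.20 to 36.7 RPM with DoxRA (1 of 8 at 10 RPM or more, 3 at 0) and 7.89 to 9.46 RPM with Dox (0 of 8, 1 at 0), against 21.9 to 36.5 RPM in controls (1 of 8, 0 at 0). Of the germ cell genes, Ddx4 was higher, at 716 RPM with DoxRA and 442 RPM with Dox against 91.4 RPM in controls, and Dppa3, whose reporter was used for sorting, was lower, at 3.51 RPM with DoxRA and 357 RPM with Dox against 866 RPM. The part of these shifts in the fall of the 10 genes was not tested. In bulk libraries, fewer cells that express a gene and less RNA per cell cannot be told apart.

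Members were first called lower with DoxRA on different days. At day 4, 3 of 9 members tested were called lower with DoxRA (5.1% of all genes tested), namely Zfp42, Nanog and Esrrb. Zfp42 had 57.5 and 43.5 RPM with DoxRA, against 137 and 247 RPM in controls (log2 change -1.86 ± 0.26, adjusted p = 8.41e-08). Nanog had 42.6 and 71.5 RPM, against 204 and 172 RPM (log2 change -1.75 ± 0.47, adjusted p = 0.00411). Sox2 at this time had 223 and 259.7 RPM with DoxRA and 209.5 and 262 RPM in controls, with overlapping libraries.

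By day 5, 7 of 9 members were called lower with DoxRA (7.98% of all genes tested). Pou5f1 had 49.3 and 51.9 RPM, against 204 and 275 RPM in controls (log2 change -2.21 ± 0.46, adjusted p = 7.76e-05). Nanog, Esrrb, Klf5, Klf2, Zfp42 and Sox2 were also called, with log2 changes of -3.34, -2.63, -2.31, -2.30, -2.13 and -1.32. Sall4 was the last of the 8 to be called, at day 7, with 23.0 ± 16.8 RPM with DoxRA against 223 ± 20.5 RPM in controls (log2 change -3.43 ± 0.31, adjusted p = 6.3e-17), when 8 of 9 members were lower (18.8% of all genes tested). Pou5f1 then stood at 7.01 and 10.5 RPM and Nanog at 1.75 and 3.8 RPM, against 162 and 188 RPM of Pou5f1 and 131 and 136 RPM of Nanog in controls. Nanog, Klf2 and Klf5 were tested at day 7 only because they reached 10 RPM in controls, so those calls say no more than the levels. Zfp42 had its lowest level of the DoxRA course at day 7, 23.4 and 28.8 RPM, and its libraries of day 9 (38.4 and 39.9 RPM) lay above them. The RNA extraction label also differs between these days for at least 1 library, and this difference in Zfp42 was not tested.

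With Dox alone fewer members were called at days 4 and 5. Zfp42 was the only member of 9 called lower at day 4 (82.6 ± 2.38 RPM with Dox against 192 ± 78.0 RPM in controls, log2 change -1.14 ± 0.26, adjusted p = 0.00127; 3.6% of all genes tested). Nanog, Zfp42, Klf2 and Esrrb were called at day 5 with log2 changes of -1.75, -1.26, -1.24 and -1.20 (5% of all genes tested). At day 7, 8 of 9 were called (11.8% of all genes tested), but the Dox libraries stood far apart, with Pou5f1 at 23.0 and 138 RPM and Nanog at 7.57 and 55.2 RPM. DoxRA differed from Dox alone in 0 of 9 members at day 4 (limma; 1 at an unadjusted p under 0.05; 0.0227% of all genes tested were lower), in Esrrb at day 5 (-1.43; 0.362% lower) and in 5 of 6 at day 7 (2.02% lower). All Dox libraries and all but 1 DoxRA library of days 4, 5 and 7 carry an RNA extraction label that names the RNeasy kit, while their controls carry one that names RNeasy or NucleoSpin, so treatment and extraction cannot be told apart there. The second DoxRA library of day 7 matches 2 labelled samples that differ in this label, so its extraction is not known. Every PGCLC library of day 9 carries the label that names both kits. Feeder and stroma genes summed to 20.6 to 25.3 RPM with DoxRA against 20.5 to 219 RPM in controls at day 5, and to 35.6 to 47.8 RPM against 118 to 197 RPM at day 7.

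**Figure D2:**
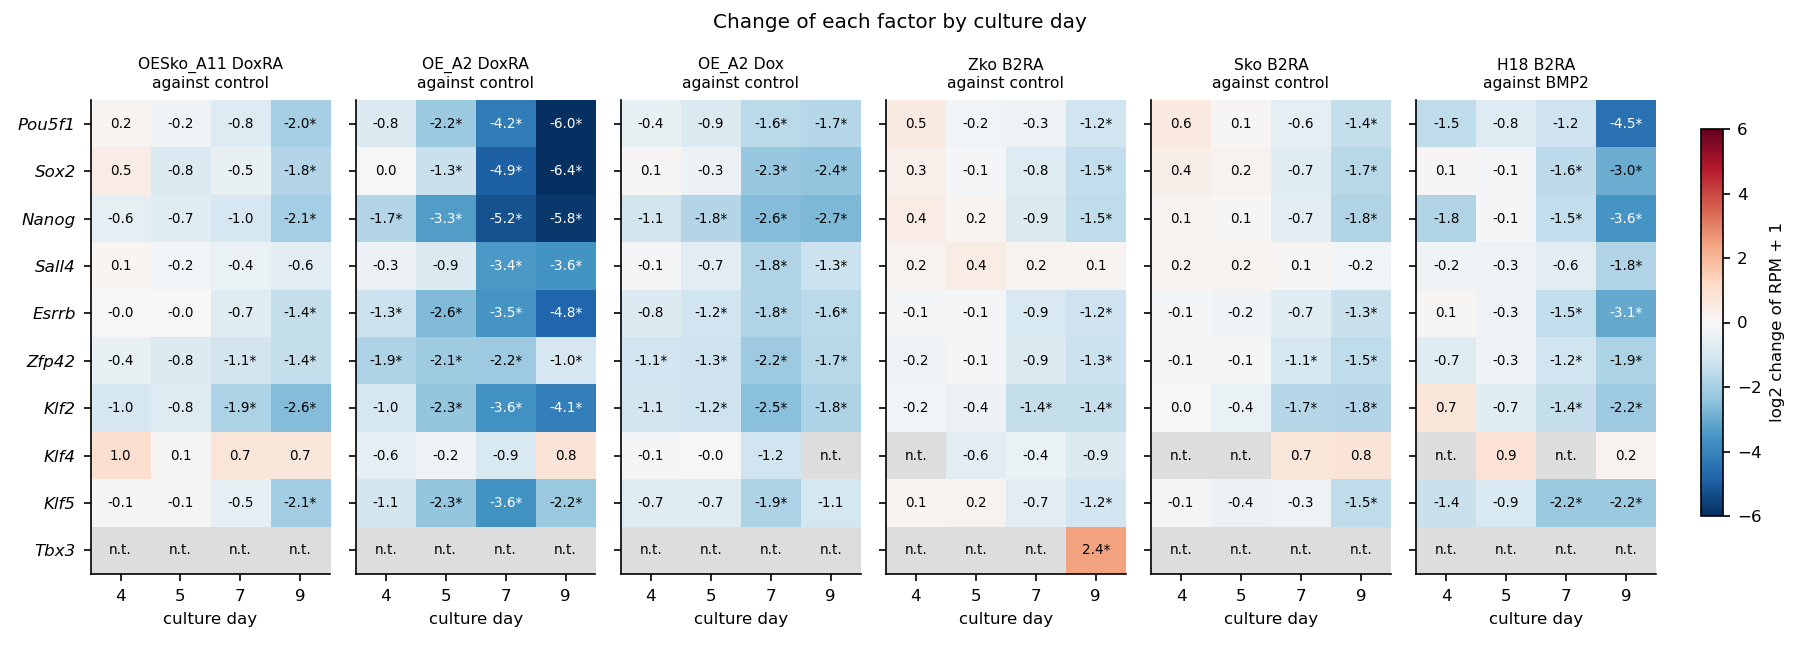
Change of each member by day against the control named at the top of its panel, as log2 difference of RPM + 1 from limma (blue lower, red higher), with an asterisk where called and n.t. where not tested. In OE_A2 with DoxRA 3, 7, 8 and 8 members are called lower at days 4, 5, 7 and 9, whereas in Zko with B2RA 0, 0, 1 and 7 are. H18 with B2RA at day 4 is 1 library and carries no test.

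Members were also lower with Dox in 2 other media. With BMSDox against BMS at day 9, 4 of 8 members were lower (6.39% of all genes tested). Pou5f1 fell to 64.2 ± 23.8 RPM, against 220.1 ± 50.5 RPM with BMS (log2 change -1.79 ± 0.46, adjusted p = 0.00138), Nanog to 45.5 ± 21.5 RPM against 142 ± 18.5 RPM (-1.69), Klf5 to 31.3 ± 13.3 RPM against 119.9 ± 7.15 RPM (-1.97) and Zfp42 to 41.9 ± 5.73 RPM against 113 ± 5.6 RPM (-1.42). Esrrb, at 110.4 ± 35.7 RPM with BMSDox and 138 ± 8.68 RPM with BMS, and Sox2, at 127 ± 19.8 RPM and 239.8 ± 33.5 RPM, were not called (adjusted p = 0.369 and 0.0719). Sox2 was, however, called lower with TMM factors (-1.19, adjusted p = 0.0171) and by edgeR (-1.20, adjusted p = 0.00136). The response to Dox differed between BMS and the control medium by 1.25 ± 0.41 on the log2 scale for Esrrb (95% interval 0.44 to 2.07, adjusted p = 0.089) and by 1.48 ± 0.57 for Sox2 (0.34 to 2.62, adjusted p = 0.164). For Pou5f1 it differed by -0.08 ± 0.65 (-1.37 to 1.21). By limma 0 of 9 members were called in this difference (1.64% of all genes), and edgeR called 0. An unadjusted p under 0.05 was reached by 3 of them, and Sox2 was called when only the groups compared were fitted (adjusted p = 0.0458). Without the second BMSDox library Pou5f1 (adjusted p = 0.0630) and Nanog (adjusted p = 0.127) lost their calls against BMS. The feeder and stroma sum was 111 to 243 RPM with BMSDox (7 of 12 genes at 10 RPM or more, 2 at 0), against 70.5 to 146 RPM with BMS (4 of 12, 2 at 0). The mesoderm and endoderm sum was 56.8 to 281 RPM, against 55.0 to 64.1 RPM (1 of 8 and 2 at 0 in both groups). The part of either was not tested. The mCherry row was at 8929 to 11751 RPM with BMSDox, against 43.5 to 95.9 RPM with BMS.

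In serum-free medium with WIN, 8 of 9 members tested were lower with Dox (9.71% of all genes tested). Zfp42 fell to 24.6 ± 8.04 RPM with SerumMinusWINDox, against 127 ± 40.2 RPM with SerumMinusWIN (log2 change -2.32 ± 0.26, adjusted p = 2.83e-12), and Sox2 to 73.9 ± 13 RPM against 399 ± 33.9 RPM (log2 change -2.43 ± 0.41, adjusted p = 8.96e-07). The 2 SerumMinusWINDox libraries differed, with Nanog at 86.1 and 17.2 RPM and Esrrb at 108 and 31.5 RPM, against 164 and 135 RPM of Nanog and 193 and 99.7 RPM of Esrrb with SerumMinusWIN. Without the second of them 4 members were called, and 5 when only the groups compared were fitted. Esrrb also lost its call without the first SerumMinusWIN library (-0.76) and Klf5 without the second (-0.69). Klf4 was at 13.5 ± 3.72 RPM with SerumMinusWINDox and 25.7 ± 1.15 RPM with SerumMinusWIN (adjusted p = 0.25). The difference of the Dox response from that in control medium was called for 0 of 9 members by limma (0.01% of all genes) and for 0 by edgeR, and 0 had an unadjusted p under 0.05. For Nanog it was 0.78 (-0.54 to 2.1) and for Zfp42 -0.67 (-1.40 to 0.07), intervals that leave room for changes past the size threshold.

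Without Dox, neither medium moved a member past the test at day 9. BMS against control gave 0 of 9 called (2.46% of all genes; 1 at an unadjusted p under 0.05, 0 by edgeR). Klf5 averaged 119.9 ± 7.15 RPM with BMS and 53.3 ± 23.7 RPM in controls (log2 difference 1.23 ± 0.47, adjusted p = 0.137). SerumMinusWIN against control gave 0 of 9 (0.022% of all genes; 2 at an unadjusted p under 0.05, 0 by edgeR), with Klf4 at 25.7 ± 1.15 RPM and 8.54 ± 4.96 RPM in controls (log2 difference 1.59 ± 0.61, adjusted p = 0.695).

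In OESko_A11, which lacks Stra8, most members were lower with DoxRA at day 9, but the core factors did not come down to a few reads. In OESko_A11 Pou5f1 had 59.0 and 55.2 RPM with DoxRA, against 218 and 239.9 RPM in controls. Nanog had 27.6 and 49.4 RPM with DoxRA, against 146 and 169.7 RPM in controls. Sox2 had 61.4 and 40.2 RPM with DoxRA, against 185 and 163 RPM in controls. The DoxRA libraries lay below the controls for all 3, as they did for 25.6% of all genes tested, with log2 changes of -1.98 ± 0.46 (adjusted p = 0.000437), -2.06 ± 0.47 (adjusted p = 0.000371) and -1.78 ± 0.41 (adjusted p = 0.000359). Klf2 had the largest log2 change of the members, -2.59 ± 0.44, with 13.5 ± 2.19 RPM against 85.4 ± 2.66 RPM in controls (adjusted p = 2.74e-06), and Klf5 (-2.1), Zfp42 (-1.42) and Esrrb (-1.42) were lower too. Sall4, with 134 and 127 RPM against 199 and 208 RPM in controls, was not called (log2 change -0.64 ± 0.31, adjusted p = 0.111). In all, 7 of 9 members tested were lower, where 6.56% of 9663 genes were. The feeder and stroma sum was 355 to 551 RPM with DoxRA (6 of 12 genes at 10 RPM or more, 2 at 0), against 72.8 to 143 RPM in controls (4 of 12, 2 at 0), and Dppa3, the gene of the sorted reporter, was at 466 RPM against 1133 RPM. The part of either in these changes was not tested.

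The response to DoxRA differed between the clones for 5 members. The response in OESko_A11 minus that in OE_A2 was 4.59 ± 0.57 on the log2 scale for Sox2 (adjusted p = 1.29e-09), 4.03 ± 0.65 for Pou5f1 (adjusted p = 1.14e-06), 3.75 ± 0.66 for Nanog (adjusted p = 8.3e-06), 3.36 ± 0.41 for Esrrb (adjusted p = 4.97e-10) and 2.96 ± 0.44 for Sall4 (adjusted p = 1.56e-07). These were 5 of 9 members tested, where 14.8% of all genes tested were called higher in this difference. The KLF factors and Zfp42 were not called: the difference was 1.5 ± 0.63 for Klf2 (95% interval 0.25 to 2.74, adjusted p = 0.0735; called without the first DoxRA or the second control library of OE_A2), 0.11 for Klf5 (-1.21 to 1.42), -0.07 for Klf4 (-1.78 to 1.63) and -0.40 for Zfp42 (-1.13 to 0.33). The whole interval of Zfp42 lies below those of the 5 members called. Each genotype is 1 clone, so Stra8 and clone cannot be told apart.

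**Figure D3:**
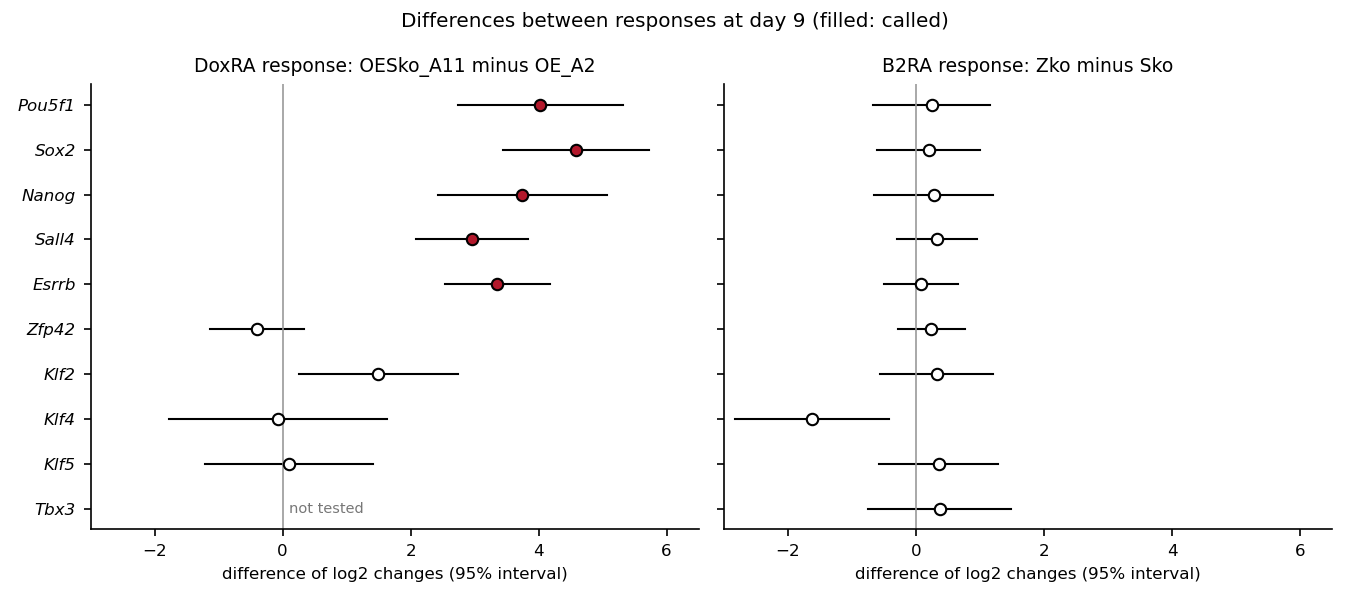
Differences of responses at day 9 for each member, as log2 with 95% intervals from limma, filled where called. The DoxRA response of OESko_A11 minus OE_A2 lies at 2.96 to 4.59 for Sall4, Esrrb, Nanog, Pou5f1 and Sox2, and no member is called in the B2RA response of Zko minus Sko.

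Set side by side under DoxRA, 6 of 9 members were higher in OESko_A11 than in OE_A2 at day 9 (19.6% of all genes tested), with log2 differences of 4.71 for Pou5f1, 4.38 for Nanog, 4.04 for Esrrb, 3.91 for Sox2, 3.35 for Sall4 and 1.81 for Klf2. Klf2 lost its call by edgeR (adjusted p = 0.070), when only the groups compared were fitted (adjusted p = 0.0758) and without the second OE_A2 DoxRA library (adjusted p = 0.0854). When either OESko_A11 DoxRA library was left out and the filter applied anew, 1 member was called, since the others no longer reached 10 RPM in enough libraries. At day 5 Esrrb was at 224 ± 31.3 RPM in OESko_A11 and 26.7 ± 9.36 RPM in OE_A2 (log2 difference 3.05 ± 0.29, adjusted p = 4.72e-15) and 7 of 9 members were higher (8.81% of all genes tested). At day 7 all 9 tested were higher (18.4% of all genes tested). Nanog, Klf2 and Klf5 passed the filter there only through the OESko_A11 libraries, so those calls say no more than the levels. At days 4 and 5, and for at least 1 of the OE_A2 libraries of day 7, the clones also differ in extraction label, which cannot be told apart from genotype. Within OESko_A11, DoxRA against control gave 0 of 9 at day 4 (1.12% of all genes; limma, 1 at an unadjusted p under 0.05) and 0 of 9 at day 5 (9.49%; 2 at an unadjusted p under 0.05). At day 7 Klf2 (21.8 ± 2.88 RPM against 83.0 ± 2.27 RPM, log2 change -1.89 ± 0.44, adjusted p = 0.00249) and Zfp42 (-1.09) were lower (2.04% of all genes tested).

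With BMP2 and RA most members were lower in each line at day 9, and Pou5f1, Nanog and Esrrb were lowest in H18. In Zko at day 9, Pou5f1 had 114, 76.1, 208 and 127 RPM with B2RA, against 262, 256, 352 and 273 RPM in controls, in each case first the 2 libraries of Zko_E5 and then those of Zko_G10. Nanog had 125, 155, 113 and 69.3 RPM with B2RA, against 281, 325, 259 and 463 RPM in controls. The B2RA libraries lay below the controls for both genes, as they did for 6.16% of all genes tested, with log2 changes of -1.20 ± 0.32 (adjusted p = 0.00332) and -1.53 ± 0.33 (adjusted p = 0.000202). Sox2 (-1.46), Klf2 (-1.45), Zfp42 (-1.28), Esrrb (-1.24) and Klf5 (-1.15) were also lower, so that 7 of 10 members tested were called lower, where 4.33% of 9980 genes were. The SE of such a mean over 2 clones holds no spread between clones, and with Zko_G10 alone 4 members in all were called. Pou5f1 (-0.93, adjusted p = 0.178), Klf2 (-1.14, adjusted p = 0.0739) and Klf5 (-0.98, adjusted p = 0.163) lost their calls in that clone. With Zko_E5 alone Nanog (-1.11, adjusted p = 0.0863) and Zfp42 (-0.96, short of the size threshold) lost theirs. Klf5 lost its call without the first control (adjusted p = 0.0790) or the second B2RA library of Zko_G10 (adjusted p = 0.0686), and Klf4 was called lower without the second Zko_E5 B2RA library (-1.52).

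Sall4 and Tbx3 stood apart from the rest in Zko. Sall4 had 228, 304, 255 and 252 RPM with B2RA and 261, 219.6, 294 and 176 RPM in controls, with overlap and a log2 difference of 0.15 ± 0.22 (95% interval -0.29 to 0.59, adjusted p = 0.679). Tbx3, a T-box factor of the naive network that is also used in endoderm and mesoderm, was higher, at 12.1, 22.3, 8.76 and 9.43 RPM with B2RA, against 2.12, 0, 1.66 and 3.70 RPM in controls (log2 change 2.41 ± 0.40, adjusted p = 8.74e-07; 6.63% of all genes tested were called higher). It passed the filter on low values only through the Zko_E5 libraries with B2RA, where it was highest, so this call says no more than those levels. The 8 mesoderm and endoderm genes summed to 76.9 to 81.1 RPM in Zko_E5 and 154 to 164 RPM in Zko_G10 with B2RA, against 52.1 to 103 RPM in Zko_E5 and 3.74 to 9.26 RPM in Zko_G10 controls, and 3 of the 4 tested were called higher. These were Hand1, a mesoderm factor, at 53.5 ± 37.8 RPM with B2RA against 0.607 ± 0.517 RPM in controls (log2 change 4.81, adjusted p = 8.77e-13), and the endoderm and mesoderm factors Gata6 (1.91) and Gata4 (1.71), while T, a defining mesoderm gene, was at 0 in both groups. Hand1 also passed the filter only through libraries with B2RA, so its call says no more than its levels. The part of the mesoderm and endoderm genes in the level of Tbx3 was not tested. Feeder and stroma genes summed to 201 to 207 and 269 to 299.9 RPM with B2RA, against 149.5 to 181 and 375 to 382 RPM in controls of the same clones. Tbx3 was also at 7.49 and 6.74 RPM in H18 with B2RA, against 0.338 and 0.263 RPM with BMP2, and at 5.50, 7.86, 6.23 and 8.83 RPM in Sko with B2RA, against 2.67, 0.398, 0.356 and 1.07 RPM in controls, but stayed under 10 RPM there and was not tested. Of the mesoderm and endoderm genes, only Hand1, Gata4 and Gata6 were tested with B2RA in Sko and all were called higher, where 15.7% of all genes were. In H18 against BMP2 only Gata4 and Gata6 were tested and both were called higher, where 9.05% of all genes were. Hand1 in Sko and both genes in H18 passed the filter only through the libraries with B2RA, so those calls say no more than the levels.

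BMP2 without RA called 1 of 9 members in Zko, Klf2, at 57.5 ± 15.1 RPM with BMP2 against 128 ± 32.3 RPM in controls (n = 4 each; log2 change -1.13 ± 0.31, adjusted p = 0.0297; 0.648% of all genes tested). That call was lost in either clone alone and without any of 5 of the 8 libraries (the first control and first BMP2 library of Zko_E5, and both BMP2 libraries and the second control of Zko_G10). Adding RA to BMP2, B2RA against BMP2, lowered Pou5f1 (-1.51 ± 0.32, adjusted p = 0.000403), Klf5 (-1.28), Nanog (-1.27) and Sox2 (-1.07), 4 of 10 members where 2.79% of all genes were lower. Tbx3, tested through the same libraries, was higher (2.50; 4.52% of all genes were higher). Zfp42 (-0.98, adjusted p = 3.81e-05) and Esrrb (-0.90, adjusted p = 0.00078) passed the p threshold but not the size threshold. Both were called lower with TMM factors (-1.11 and -1.03) and by edgeR (-1.10 and -1.02). Sox2 fell short of the size threshold without the second BMP2 or B2RA library of Zko_E5 or the second B2RA library of Zko_G10 (-0.96 to -0.99), and Zfp42 passed it without any of 4 libraries (-1.13 to -1.03). With Zko_E5 alone 3 members in all were called, Tbx3 among them, and Nanog and Klf5 lost their calls. With Zko_G10 alone the 1 member called was Zfp42, and Pou5f1, Sox2, Nanog and Klf5 all lost theirs.

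In Sko 7 of 9 members tested were lower with B2RA at day 9 (where 5.08% of 10111 genes were). Nanog had 58.5, 72.0, 69.9 and 74 RPM with B2RA, against 208, 236, 221 and 318 RPM in controls, first Sko_B6 and then Sko_F6 (log2 change -1.81 ± 0.33, adjusted p = 4.01e-06). Pou5f1 had 90.3, 99.6, 144 and 138 RPM with B2RA, against 289.5, 272, 401 and 315 RPM in controls (log2 change -1.44 ± 0.32, adjusted p = 0.000142). Klf2 (-1.77), Sox2 (-1.66), Zfp42 (-1.52), Klf5 (-1.51) and Esrrb (-1.32) were lower too. Sall4 averaged 216 ± 9.59 RPM with B2RA and 249.8 ± 61.1 RPM in controls (log2 difference -0.18 ± 0.22, 95% interval -0.62 to 0.26), and Klf4 was called higher without the first Sko_B6 control (1.15, adjusted p = 0.0426). The mesoderm and endoderm sum was 89.9 to 181 RPM in Sko_B6 and 28.6 to 46.4 RPM in Sko_F6 with B2RA, against 25.1 to 30.5 and 6.05 to 7.81 RPM in their controls. Feeder and stroma genes summed to 186 to 282 and 133 to 307 RPM with B2RA, against 214 to 501 and 223 to 293 RPM in controls of the same clones. The part of either was not tested.

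The B2RA responses of Zko and Sko were compared next. The difference, Zko minus Sko, was called for 0 of 10 members by limma (8.04% of all genes) and for 0 by edgeR, though 1 member had an unadjusted p under 0.05. It was 0.24 ± 0.46 for Pou5f1 (95% interval -0.67 to 1.16), 0.28 ± 0.47 for Nanog (-0.66 to 1.21), 0.08 ± 0.29 for Esrrb (-0.50 to 0.65) and 0.33 ± 0.31 for Sall4 (-0.29 to 0.95). Klf4 lay farthest from 0, at -1.63 ± 0.61 (-2.83 to -0.42, adjusted p = 0.0628), and was called with a pseudocount of 5 RPM and without the second Zko_E5 B2RA, the first Zko_G10 control or the first Sko_B6 control library.

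H18 had no control at day 9, so B2RA was set against BMP2 there, and 8 of 9 members tested were lower (6.98% of 9594 genes). Pou5f1 had 6.84 and 10.4 RPM with B2RA, against 146 and 295 RPM with BMP2 (log2 change -4.46 ± 0.46, adjusted p = 4.15e-13). Nanog had 6.19 and 6.46 RPM with B2RA, against 53.1 and 137 RPM with BMP2 (log2 change -3.56 ± 0.47, adjusted p = 4.71e-09). It passed the filter on low values only through the BMP2 libraries, so this call says no more than those levels. The BMP2 libraries differed from each other by more than the B2RA ones, and all of them lay above those with B2RA, as they did for 25% of all genes tested. Esrrb (-3.06), Sox2 (-2.96), Klf5 (-2.24), Klf2 (-2.17), Zfp42 (-1.89) and Sall4 (-1.78) were lower too. Sall4 had 54.4 and 109 RPM with B2RA, against 204 and 351 RPM with BMP2 (adjusted p = 6.35e-06), while Klf4 averaged 15.4 ± 9.08 RPM with B2RA and 12.3 ± 3.04 RPM with BMP2 (adjusted p = 0.847). Klf5 lost its call without the second BMP2 library (adjusted p = 0.0575). Feeder and stroma genes summed to 147 to 539.6 RPM with B2RA (7 of 12 at 10 RPM or more, 0 at 0), against 37.9 to 209 RPM with BMP2 (4 of 12, 2 at 0). Mesoderm and endoderm genes summed to 51.9 to 206 RPM with B2RA (3 of 8 at 10 RPM or more, 0 at 0), against 9.81 to 25.2 RPM with BMP2 (0 of 8, 1 at 0), and Dppa3 was at 80.0 RPM against 904 RPM. The part of these in the result was not tested.

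Under B2RA at day 9, both knockouts held higher levels than H18. In Zko, 8 of 10 members were higher than in H18 (15.4% of all genes tested), with a log2 difference of 3.94 ± 0.41 for Nanog (adjusted p = 3.82e-14), 3.71 ± 0.40 for Pou5f1 (adjusted p = 1.67e-13) and 2.64 ± 0.25 for Esrrb (adjusted p = 3.25e-16). Klf2, Klf5, Zfp42, Sall4 and Sox2 differed by 1.66 to 2.00. In Sko, 8 of 9 were higher than in H18 (11.3% of all genes tested), by 3.62 ± 0.40 for Pou5f1, 3.24 ± 0.41 for Nanog and 2.85 ± 0.25 for Esrrb, with 1.3 to 1.95 for the other 5. Klf4 was not called in either, at -0.12 (95% interval -1.16 to 0.92) in Zko and 0.33 (-0.71 to 1.37) in Sko. Nanog was under 10 RPM in both H18 libraries and passed the filter on low values only through the knockouts, so its calls here say no more than the levels. The comparisons of Zko and Sko with H18 under B2RA share the 2 H18 libraries. In Sko, Klf5 lost its call without the second of them (adjusted p = 0.0775) and Sall4 without the first (0.98 on the log2 scale). Under BMP2 alone, Zko was above H18 in 1 of 9 members (6.07% of all genes tested), Nanog, at 277 ± 74 RPM in Zko and 94.9 ± 59.0 RPM in H18 (log2 difference 1.64 ± 0.41, adjusted p = 0.00112). The call was lost without the first H18 BMP2 library, and 3 members were called without the second, or with TMM factors, and 2 by edgeR. Whether the response to B2RA itself differed between a knockout and H18 was not tested.

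In the knockouts the calls with B2RA came at days 7 and 9. With B2RA against control, 0 of 8 members were called in Zko and in Sko at day 4 (limma, 0 at an unadjusted p under 0.05 in either; 0.496% and 0.185% of all genes), and 0 of 9 and 0 of 8 at day 5 (again 0 at an unadjusted p under 0.05; 1.01% and 0.488%). At day 7 Klf2 was lower in Zko, at 38.4 ± 10.1 RPM with B2RA against 108 ± 42.2 RPM in controls (log2 change -1.41 ± 0.31, adjusted p = 0.000689; 1.84% of all genes tested). Klf2 was likewise lower in Sko, at 52.2 ± 19.8 RPM against 174 ± 69.1 RPM (log2 change -1.72 ± 0.31, adjusted p = 1.87e-05), together with Zfp42 (-1.06; 1.95% of all genes tested). In H18, B2RA against BMP2 gave 0 of 9 at day 5 (0.218% of all genes; 0 at an unadjusted p under 0.05) and 6 of 8 at day 7 (1.8% of all genes tested), with Klf5 at -2.23, Sox2 at -1.57, Esrrb at -1.49, Nanog at -1.46, Klf2 at -1.42 and Zfp42 at -1.19. At day 4 the single H18 library with B2RA had Pou5f1 at 114 RPM and Nanog at 54.3 RPM, against 407 and 387 RPM and 205 and 199 RPM in controls. With 1 library there is no test, and this library matches 2 labelled samples that differ in extraction label, so its extraction is not known. BMP2 or RA alone against control gave 0 of 8 at day 4 (1.56% and 2.13% of all genes). The H18 controls of day 4 carry the label that names RNeasy, and these BMP2 and RA libraries carry the one that names both kits. Treatment and extraction cannot be told apart at that day. At day 3.5 BMP2, RA and B2RA gave 0 of 8 each (0.0119%, 0% and 0% of all genes). By limma 0 members had an unadjusted p under 0.05 in any of these 5.

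Over time, day 9 against day 4, 0 to 5 members were called in a line. In H18, which had no untreated libraries at day 9 and was compared under BMP2, Klf2 was at 51.4 ± 12.5 RPM at day 9 against 155 ± 17.7 RPM at day 4 (log2 change -1.59 ± 0.44, adjusted p = 0.00446), and Zfp42 (-1.20), Klf5 (-1.19) and Esrrb (-1.01) were lower too, 4 of 9 members where 2.71% of all genes were lower. Klf4 rose to 12.3 ± 3.04 RPM at day 9, against 1.64 ± 0.0992 RPM at day 4 (log2 change 2.32 ± 0.61, adjusted p = 0.0023; 13.6% of all genes were higher). It passed the filter on low values only through the libraries of day 9, where it was higher, so this call says no more than those levels. With TMM factors and by edgeR 7 members in all were called there, and without the first library of day 4 or of day 9, 2 were. In Zko controls Klf4 rose to 25.1 ± 7.21 RPM at day 9, against 3.30 ± 1.59 RPM at day 4 (log2 change 2.66 ± 0.43, adjusted p = 5.27e-07), and Nanog to 332 ± 91.9 RPM against 148 ± 62.9 RPM (log2 change 1.27 ± 0.33, adjusted p = 0.00183), 2 of 9 members where 9.99% of all genes were higher. Here too Klf4, but not Nanog, passed the filter only through the libraries of day 9. Without the second Zko_E5 control of day 4, 1 member was called, and Klf5 was called too without the first Zko_E5 control of day 4 or the second control of day 9 of either clone (1.01 to 1.38). Zfp42 was the only member of 9 lower in OE_A2 controls, at 80.8 ± 15.7 RPM at day 9 against 192 ± 78.0 RPM at day 4 (log2 change -1.19 ± 0.26, adjusted p = 0.00067; 3.14% of all genes tested), a call lost without the second library of either day, while 2 members were called without the first library of day 4. Controls of OESko_A11 and Sko gave 0 of 9 and 0 of 8 (limma; 2 and 1 at an unadjusted p under 0.05, 0 by edgeR; 8.83% and 7.41% of all genes), and OE_A2 at day 3 against day 0 gave 0 of 9 (2 at an unadjusted p under 0.05, 1 by edgeR; 3.11% of all genes).

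Genes around the members were taken by list. Genes bound or driven by the core factors were lower in 11 of 13 tested with DoxRA in OE_A2 and in 11 of 13 with Dox, with none higher, where 22.5% and 9.38% of all genes were lower, at median log2 changes of -4.54 and -1.49, beside 0.11 and 0.06 over all genes. Utf1, a chromatin factor of undifferentiated cells, was at 5.71 ± 1.32 RPM with DoxRA against 265 ± 19.2 RPM in controls (log2 change -5.32). Dppa5a, which encodes an RNA-binding protein of stem and germ cells, was at 36.3 ± 7.43 RPM against 1819 ± 98.5 RPM (-5.62). Tdgf1, a co-receptor of NODAL, had no read with DoxRA against 152 ± 65.7 RPM in controls. Setting it at a floor of 3 reads over the group left the median of the list where it was. Jarid2, a cofactor of PRC2, was at 232 ± 25.5 RPM with DoxRA and 175 ± 2.89 RPM in controls and was not called. In the other lines, targets were lower in 9 of 14 with DoxRA in OESko_A11 (median -1.17), 9 of 15 with B2RA in Zko (-1.26), 8 of 15 in Sko (-1.04) and 11 of 13 in H18 against BMP2 (-2.15), beside medians over all genes of 0.21, 0.11, 0.23 and 0.07 and shares of all genes called lower of 6.56%, 4.33%, 5.08% and 6.98%. None was higher in any of these. The DoxRA response differed between the clones, OESko_A11 minus OE_A2, for 12 of 15 targets (14.8% of all genes were higher; median 2.94 beside 0.17 over all genes).

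Other naive factors were lower in 6 of 8 tested with DoxRA in OE_A2 (median log2 change -3.36) and in 4 of 8 with Dox (-1.14), with none higher, where 22.5% and 9.38% of all genes were lower. Prdm14, which represses the DNA methylation machinery in naive and germ cells, was at 2.06 ± 0.466 RPM with DoxRA against 41.6 ± 20.9 RPM in controls (log2 change -3.72). Tfap2c, a germ cell specifier, was at 0.543 RPM against 44.8 RPM. Tfcp2l1, at 22.8 ± 2.91 RPM with DoxRA and 26.7 ± 0.315 RPM in controls, and Zfp281, at 97.9 ± 38.1 RPM and 108 ± 15.1 RPM, were not called (adjusted p = 0.487 and 0.56). Elsewhere 5 of 8 were lower in OESko_A11 with DoxRA, 4 of 8 in Zko and 6 of 8 in Sko with B2RA, and 6 of 8 in H18, at medians of -1.42, -1.08, -1.21 and -2.19, and none was higher. Of all genes, 6.56%, 4.33%, 5.08% and 6.98% were called lower in these comparisons.

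Genes of the LIF pathway, which feeds the KLF factors, went in both directions. With DoxRA in OE_A2, 3 of 8 genes tested were lower and 1 higher (median -0.91), where 22.5% of all genes were lower and 25.6% higher. Socs3, a feedback inhibitor induced by STAT3, was at 6.04 ± 1.60 RPM with DoxRA against 46.5 ± 2.31 RPM in controls (log2 change -2.77), and the kinase gene Pim1 (-2.86) and the receptor gene Lifr (-1.35) were lower too. Jak2, a kinase of this receptor complex, was at 68.9 ± 1.81 RPM against 33.5 ± 6.98 RPM and was called higher (1.03). It was also called higher with DoxRA in OESko_A11 (1.26) and with B2RA in Zko (1.32) and Sko (1.52). Stat3 itself was called higher with B2RA in Sko, at 94.8 ± 18.1 RPM against 37.7 ± 8.94 RPM in controls (1.32), and its log2 difference with DoxRA in OE_A2 was 0.01. Counts were 2 lower of 8 with Dox in OE_A2 (Socs3 and Pim1), 1 higher of 8 in OESko_A11, 1 higher of 9 in Zko, 2 higher of 8 in Sko and 2 lower of 8 in H18 (Lifr and Pim1), with medians of -0.62, -0.77, -0.07, -0.31 and -0.14. Of all genes, 9.38% were lower with Dox, 13.5% higher in OESko_A11, 6.63% higher in Zko, 15.7% higher in Sko and 6.98% lower in H18.

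Of the markers of the formative and primed epiblast, 4 of 4 tested were lower with DoxRA in OE_A2 (median -3.96) and 4 of 5 with Dox (-2.27), with none higher, where 22.5% and 9.38% of all genes were lower. All 4 passed the filter on low values with DoxRA only through the controls, as did Pou3f1, Otx2 and Sall2 with Dox. The calls of these genes say no more than their levels. Dnmt3b, a de novo DNA methyltransferase, was at 2.42 ± 2.30 RPM with DoxRA against 115 ± 56.9 RPM in controls (log2 change -5.17), and Otx2, a formative homeobox factor, at 1.26 ± 0.662 RPM against 53.6 ± 34.7 RPM (-4.46). In Zko with B2RA, Otx2 had no read in 4 libraries against 34.0 ± 26.6 RPM in controls. Of the repressors of the network, 2 of 5 were lower with DoxRA in OE_A2 and none higher (median -0.67; 22.5% of all genes were lower), namely Tcf7l1, the WNT pathway repressor of naive genes, at 12.2 ± 6.00 RPM against 109 ± 39.2 RPM (-3.09), and Zeb1, a repressor of epithelial genes (-1.21). Called higher in other lines were Nr2f2 in H18 with B2RA, at 14.2 ± 2.98 RPM against 0.563 ± 0.318 RPM with BMP2 (3.28; 9.05% of all genes were higher), and Nr6a1, an orphan receptor that represses Pou5f1, in Sko with B2RA, at 147 ± 21.7 RPM against 67.1 ± 12.9 RPM in controls (1.13), and in Zko with B2RA against BMP2 (1.09). Tcf7l1 was called lower in OESko_A11 with DoxRA (-1.56, where 6.56% of all genes were lower). Nr2f1 was called lower in Zko against controls, by -3.28 with BMP2 and -1.33 with B2RA, where 0.648% and 4.33% of all genes were lower. Nr2f2 passed the filter on low values only through the H18 libraries with B2RA, and Nr2f1 with BMP2 only through the controls. Those 2 calls say no more than the levels. Relatives of the KLF and SOX members were also present: over PGCLC groups Klf10 ranged from 57.5 to 231 RPM, Klf9 from 0.463 to 114 RPM, Klf6 from 2.03 to 62.6 RPM and Sox15 from 1.3 to 157 RPM, with Klf6, Klf3, Klf13 and Sox15 lowest in OE_A2 with DoxRA at day 9, whereas Klf17, Sox3 and Sox17 stayed at or under 15.0 RPM.

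The embryonic libraries gave levels of the same genes in germ cells before and during the entry into meiosis, 1 library each, with exact Poisson 95% intervals that cover counting error only. Pou5f1 was at 714 RPM (689 to 740.2) in primordial germ cells of E9.5, 18.8 RPM (14.4 to 24.1) in oocytes of E14.5 and 9.65 RPM (6.36 to 14.0) in those of E15.5. Nanog was at 156 RPM (144 to 168) at E9.5 and 0.909 RPM (0.187 to 2.66) from 3 reads at E14.5, and had no read at E15.5, where 3 reads would be 1.07 RPM. Sox2 was at 487, 27.6 and 16.1 RPM, Sall4 at 375, 15.45 and 10.7 RPM and Esrrb at 187, 6.36 and 2.50 RPM, in the order of the stages. All 5 were highest at E9.5. Klf2 (119.8, 5.15 and 4.29 RPM) and Klf5 (39.9, 7.58 and 3.93 RPM) had the same order of stages. Zfp42 was at 15.55 RPM (12.0 to 19.8), 17.3 RPM (13.1 to 22.4) and 22.5 RPM (17.3 to 28.8), and Klf4 at 1.20 RPM (0.388 to 2.79), 4.55 RPM (2.54 to 7.5) and 11.8 RPM (8.12 to 16.6), so that Klf4 was highest at E15.5. Tbx3 was at 1.20 RPM at E9.5 and had no read later. With 1 library a stage there is no test, and stage cannot be told apart from the reporter used for sorting.

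**Figure D4:**
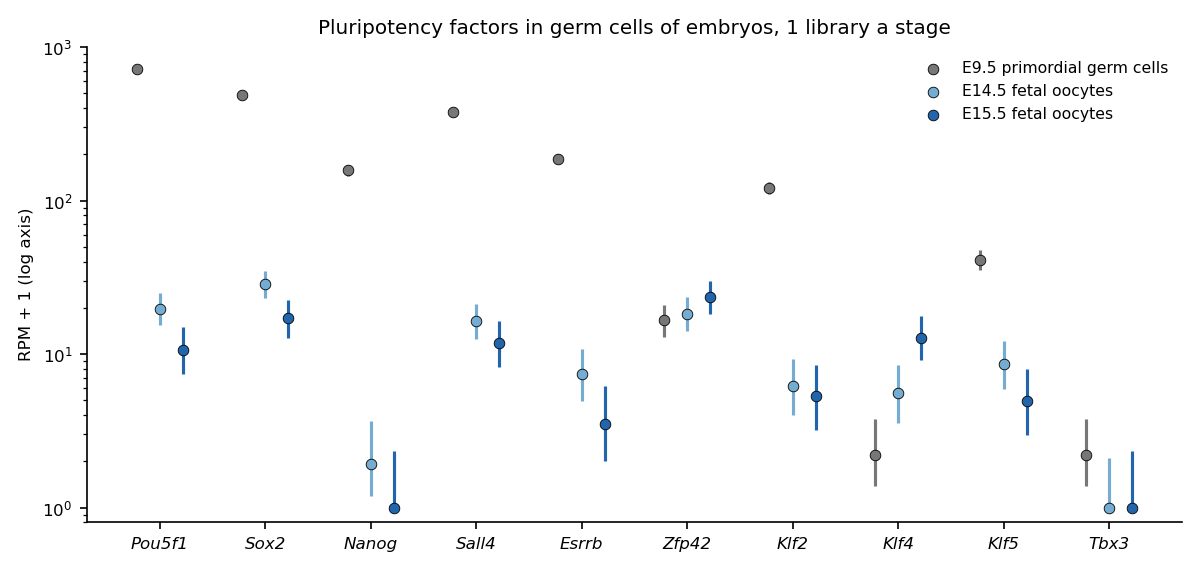
Level of the 10 genes in germ cells of the embryo, by embryonic day, in RPM + 1 on a log axis with exact Poisson 95% intervals, 1 library each. Pou5f1 is at 714, 18.8 and 9.65 RPM at the 3 stages, while Zfp42 is at 15.55, 17.3 and 22.5 RPM.

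Across the 98 PGCLC groups, 8 of the members varied together. The 28 pairs among Pou5f1, Sox2, Nanog, Sall4, Esrrb, Zfp42, Klf2 and Klf5 had a Pearson r of log2(RPM + 1) of 0.71 to 0.95 with a median of 0.83, given as a description because groups share lines, days and media. The closest pair was Pou5f1 and Nanog with 0.95, and the loosest Klf2 and Klf5 with 0.71. The 17 pairs with Klf4 or Tbx3 had r of -0.31 to 0.38 with a median of -0.20. Over the differences between the 2 replicates of 93 groups, where treatment is held fixed, r was 0.60 for Pou5f1 and Nanog, 0.67 for Esrrb and Sall4 and 0.62 for Nanog and Klf5, but -0.28 for Klf2 and Klf5. There Klf4 read 0.39 with Nanog and -0.19 with Klf2, and Klf2 read -0.18 with Pou5f1 and 0.40 with Esrrb. The split of Klf4 and Tbx3 from the other 8 members is thus one of group means only.

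**Figure D5:**
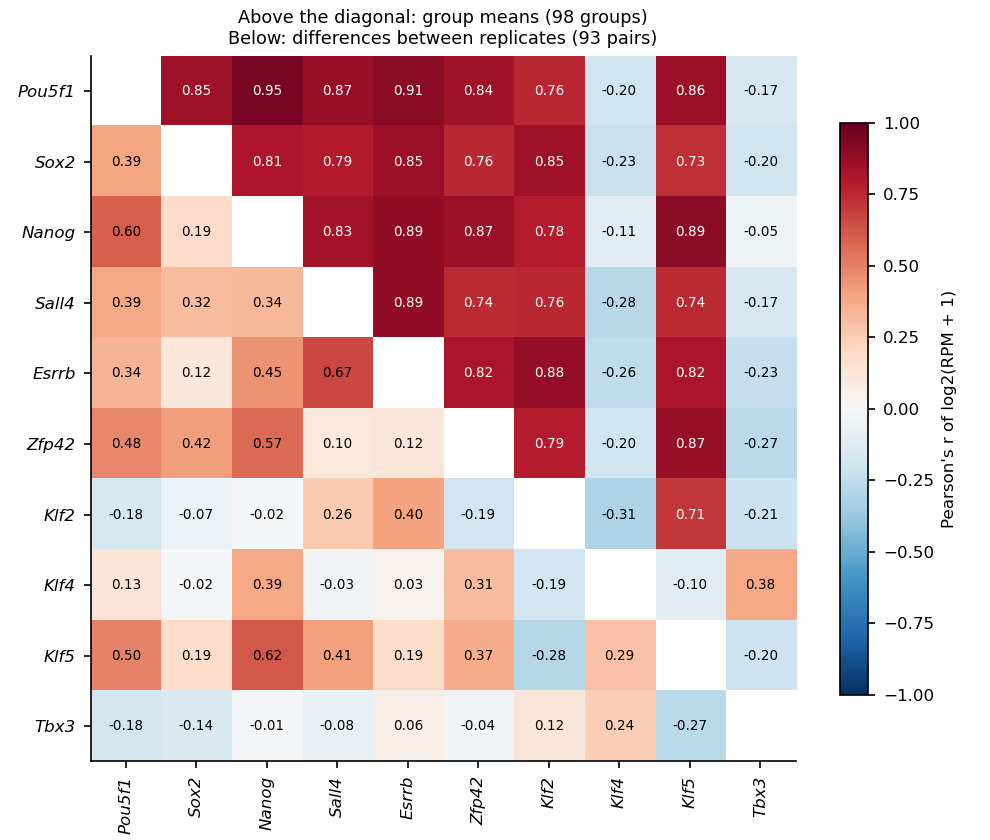
Pearson correlation of log2(RPM + 1) between members, over 98 PGCLC group means above the diagonal and over the differences within 93 replicate pairs below it. Above the diagonal Klf4 and Tbx3 stand apart from the other 8 members, while below it Klf4 with Nanog reads 0.39 and Klf2 with Pou5f1 -0.18. Pou5f1 with Nanog reads 0.95 above and 0.60 below the diagonal.

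Among 6552 other genes with a group mean of 50 RPM or more somewhere, the closest in pattern to Pou5f1 over the 98 groups were Tet1 (r = 0.95) and Pecam1 (0.92), and Tet1 was also close to Nanog (0.92), after Psma7 (0.93). Utf1 (0.97) and Etv5 (0.96) were closest to Esrrb, G3bp1 (0.94) and Zfp296 (0.93) to Zfp42, Bub3 (0.94) to Sall4, Timm8a1 (0.92) to Sox2, Fam100b (0.92) to Klf2 and Pdha1 (0.90) to Klf5. The closest to Klf4 (Ckap4) and to Tbx3 (Tead2) reached 0.70 each, and Hand1, of the mesoderm and endoderm list, was the next closest to Tbx3 (0.68).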

How the data were processed

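Per the labels' protocols, cDNA was amplified from sorted cells, with 1 ng of total RNA as input, and the 3′ ends of transcripts were sequenced. The submitters' processing notes name cutadapt 1.9.1, TopHat2 2.1.0, Bowtie 1.1.2, SAMtools 1.3, HTSeq 0.9.1 and build mm10, and their settings, including the use of strand, are not given in the sources used here. The authors deposited 1 table in RPM, scaled to the same total of reads of endogenous genes in every library, which holds 25706 such genes and 3 transgene rows. In columns of the lines with the Zglp1 transgene the transgene rows come on top, so their deposited values are a signal on the RPM scale that sums to more. Of 195 value columns, 194 matched a labelled sample and 1 was not used, 2 of 196 labelled samples were not analysed here, each sharing line, treatment, day and number with another that was given the column bearing its exact title, and 3 lines with an extra empty cell were realigned. The culture day of H18 was taken from sample titles.

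Values were whole multiples of 1 read in 100% of cases (within 0.05 reads), which gave 877040 to 5196593 reads per library, and intervals cover counting error only. All 191 PGCLC libraries in 98 groups of clone, treatment and day entered 1 limma 3.58.1 fit (R 4.3.3; trend and robust) of log2(RPM + 1). The 3 embryonic libraries, 1 for each stage, got no test. Genes with 10 RPM or more in at least 2 of the libraries compared were tested and p-values adjusted by Benjamini-Hochberg over them. A gene could pass through 1 side of a comparison alone, and its call then says no more than its levels. Values of Zko and Sko are means of 2 clones. Alternatives were pseudocounts of 0.5 and 5 RPM, no filter, TMM factors, a replicate block, only the groups compared, 1 clone alone, edgeR 4.0.16 on the recovered reads of 60 libraries, and leaving out each library in 60 fits. Scripts were tested on simulated data. Likeness was taken over genes with a group mean of at least 50 RPM, the 3 closest per member being found and 1 or 2 named. The named genes are the 10 members and, from lists of naive factors, core targets, LIF pathway, formative and primed genes, repressors and relatives, those with values given; members and lists were chosen with earlier results of these data known. Tables and figures were made with Python 3.11.15, numpy 2.4.6, pandas 2.3.3 and scipy 1.17.1. Gene positions came from GENCODE and promoters from RefSeq (GRCm38.p6).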

Additional observations from a re-analysis of the deposited data

Results flagged for a closer look

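The DoxRA response at day 9 was more negative in OE_A2 than in OESko_A11 for 5 members, which was tested as a difference of responses in limma. OESko_A11 minus OE_A2, it came to 4.59 for Sox2, 4.03 for Pou5f1, 3.75 for Nanog, 3.36 for Esrrb and 2.96 for Sall4 on the log2 scale. All 5 were also called by edgeR on the recovered reads. In the same cells the difference was -0.40 for Zfp42, 0.11 for Klf5 and -0.07 for Klf4, none of which was called. In controls of day 9, Sox2 was at 174 RPM in OESko_A11 and 283 RPM in OE_A2, and Pou5f1 at 229 RPM in OESko_A11 and 142 RPM in OE_A2.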

How the results depend on the processing

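No member's call changed sign under any alternative run. A pseudocount of 5 RPM gave 1 member for the B2RA response of Zko minus Sko (Klf4, against 0) and 1 for OE_A2 at day 3 against day 0 (Klf2, against 0), and one of 0.5 RPM gave 2 for OE_A2 controls over time (against 1). TMM factors gave 3 for Zko against H18 under BMP2 (against 1), 3 for OE_A2 controls over time and 1 for day 3 against day 0. edgeR gave 2, 3 and 1 for these. Fits of only the groups compared gave 5 for SerumMinusWINDox against SerumMinusWIN (against 8), 1 for OESko_A11 controls over time (Klf4, against 0), 1 for Zko controls over time (against 2), 1 for day 3 against day 0 and 1 for the Dox response of BMS minus control medium (Sox2, against 0). They also took Nanog and Klf2 out of the calls for DoxRA against Dox in OE_A2, and added Klf5 for Dox against control (adjusted p = 0.00824). With Zko_E5 alone 0 members were called for BMP2 against control (against 1) and 3 for B2RA against BMP2 (against 5), and with Zko_G10 alone 0 and 1 (Zfp42, not called in the main fit), besides 4 for B2RA against control (against 8) and 1 for controls over time. Zko_E5 alone also took Nanog and Zfp42 out of the calls for B2RA against control. The cause was not tested.

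Same-numbered replicates were correlated in their deviations from group means at -0.19 to 0.42. Every correlation lay over 0.1 in 7 of 17 sets of libraries, namely Zko with BMP2 and Sko with B2RA against control and 5 sets with 1 correlation each (BMS, BMSDox, SerumMinusWIN, SerumMinusWINDox and OESko_A11 with DoxRA, 0.15 to 0.42), and not in the other 10. With 2 numbers each and no shared culture in the labels, the numbers were not taken to pair the libraries. A replicate block changed no call in these 7 sets, gave 1 in place of 0 for day 3 against day 0 (Klf2), took Klf5 of H18 over time out of the calls (adjusted p = 0.0508), and changed no other call.

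Leaving out 1 library gave 7 to 7 members called for Dox against control in OE_A2 (Klf5 in place of Klf2 without the first control), 2 to 8 for DoxRA against control, 1 to 6 for DoxRA against Dox, 2 to 4 for BMSDox, 4 to 8 for SerumMinusWINDox, 7 to 7 for OESko_A11 with DoxRA, 1 to 6 for OESko_A11 against OE_A2 and 5 to 6 for the difference of their responses. It gave 0 to 1 for Zko with BMP2, 7 to 9 with B2RA, 4 to 6 for B2RA against BMP2, 7 to 8 for Sko, 6 to 8 for H18, 0 to 3 and 8 to 8 for Zko against H18 under BMP2 and B2RA, 7 to 8 for Sko against H18, 0 to 1 for the response of Zko minus Sko, and over time 0 to 2 for OE_A2, 1 to 3 for Zko and 1 to 5 for H18. It gave 0 to 0 for BMS and SerumMinusWIN against control, their 2 Dox responses, OESko_A11 and Sko over time and day 3 against day 0. The low ends of 2 and 1 for the DoxRA comparisons of OE_A2 come from applying the filter on low values anew. With the tested genes held, a choice made after those counts were seen, they were 7, 6 and, for OESko_A11 against OE_A2, 5. For single members, TMM factors added 12 calls and removed 0, edgeR added 10 and removed 1, and 1 clone alone added 2 and removed 14. Members called in neither fit changed sign 192 times in 50 combinations of member and comparison.

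Over all genes, TMM factors moved the median log2 difference by -0.28 to 0.16 and the share of calls that were higher by over 10 points in 15 of 27 comparisons. Genes called lower came to 10.7% in place of 6.39% for BMSDox, 9.81% in place of 6.56% for OESko_A11, 5.67% in place of 4.33% for Zko with B2RA, 3.98% in place of 2.79% against BMP2, 8.78% in place of 5.08% for Sko, 4.50% in place of 3.14% for OE_A2 controls over time, and 6.26% in place of 2.71% for H18 over time. By edgeR 97 genes were called in place of 222 for BMS against control, 88 in place of 140 for Zko with BMP2, 158 in place of 253 for day 3 against day 0, 373 in place of 856 for the response of Zko minus Sko and 30 in place of 164 for that of BMS minus control medium. With 2 libraries a group and members at a few reads, small differences among low levels were not detectable at this depth.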

Other observations

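One library of OE_A2 at day 9, in medium without serum and with neither WIN nor Dox, has no replicate and entered no comparison. It held Pou5f1 at 166 RPM, Sox2 at 373 RPM, Nanog at 136 RPM and Sall4 at 153 RPM. Esrrb was at 98.5 RPM, Zfp42 at 114 RPM, Klf2 at 75.3 RPM, Klf4 at 15.7 RPM, Klf5 at 51.7 RPM and Tbx3 at 5.79 RPM.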
